A study of Mus musculus with 44 samples.

Results

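T cell receptor (TCR) repertoires of 44 B16F10 melanomas contained 653 expanded clones, each an entry of at least 1% of the reads of its tumour. They were found among 170818 entries in all, so that 170165 entries were smaller clones. An entry is one amino acid sequence of the third complementarity-determining region (CDR3), the loop of the receptor that touches the peptide, in one tumour, with the reads of the TCRα and TCRβ chains counted together. Because the members were chosen by their share of reads, their sizes are given as a description and were not tested against those of smaller clones. The entries list amino acids only, so 1 entry may hold several T cell clones with the same CDR3, and a T cell can contribute an α and a β entry.

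The tumours grew subcutaneously on the back of wild-type C57BL/6 mice (C57BL/6J in the methods) and were taken on day 12, with 14 libraries from vehicle, 15 from anti-PD-1 (an antibody that blocks the checkpoint receptor PD-1) and 15 from AC484 (an inhibitor of the phosphatases PTPN2 and PTPN1). The labels call the controls vehicle, whereas the methods and the table itself describe them as not treated. Each library was made from RNA of bulk tumour, so the number of T cells and the receptor RNA per cell cannot be told apart. The methods describe injected mice in about the number of the libraries and tissue taken from each tumour, but neither they nor the labels tie a library to a mouse, and p-values measure the spread between these libraries. Totals ranged from 8080 to 756858 reads per library. Vehicle libraries were shallower, with a median of 70012.5 reads against 242262 for anti-PD-1 and 249919 for AC484. The table also assigns each library to 1 of 4 index primer sets. Set 1 held vehicle libraries only (n = 12) and set 4 AC484 libraries only (n = 8), set 2 held 10 anti-PD-1 and 2 vehicle libraries, and set 3 held 7 AC484 and 5 anti-PD-1 libraries. No set held both AC484 and vehicle, so for that pair the index set and the treatment cannot be told apart.

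A β chain is joined from a V, a D and a J gene and an α chain from a V and a J gene, with bases trimmed and added at the joints. The first residues of a CDR3 come from the V gene, the last from the J gene, and the centre mostly from the joints and, in a β chain, the D gene. When a T cell divides after meeting its antigen, its daughters carry the same receptor, which is why a large share of reads is commonly read as clonal expansion, although a cell rich in receptor RNA also raises it.

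The largest expanded β and α clones are shown first, since they set the range of sizes, with the shortest β clone and the entries next to the threshold. Capitals mark the whole CDR3, from its first cysteine to its last J-encoded residue. The largest α clone of AC484 tumours and the longest β clone, with 17 and 18 residues, are described without their letters.
Largest TRB, vehicle: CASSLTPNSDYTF
Largest TRB, anti-PD-1: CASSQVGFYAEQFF
Largest TRB, AC484: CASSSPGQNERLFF
Largest TRA, vehicle: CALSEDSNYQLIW
Largest TRA, anti-PD-1: CAASDYSNNRLTL
Shortest expanded TRB: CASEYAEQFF
Just above the threshold: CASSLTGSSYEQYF
Just below the threshold: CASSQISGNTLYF

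The largest clone of all, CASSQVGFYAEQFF, took 54.6% of the reads of anti-PD-1 tumour 6 (95% exact Clopper-Pearson interval 54.4 to 54.7). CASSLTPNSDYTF took 30.7% in vehicle tumour 3 (30.5 to 30.9) and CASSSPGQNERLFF 29.2% in AC484 tumour 4 (29.1 to 29.3). Among α chains, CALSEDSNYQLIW took 14.1% in vehicle tumour 1 (13.9 to 14.4), CAASDYSNNRLTL 12.6% in anti-PD-1 tumour 15 (12.4 to 12.7), and a 17-residue chain of Traj17 took 19.0% in AC484 tumour 4 (18.9 to 19.1). Reads carried no molecular identifiers, so these intervals cover counting error only. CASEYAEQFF, of 10 residues, held 1.97% in AC484 tumour 6, and the β clone of 18 residues held 11.3% in anti-PD-1 tumour 14. At the threshold, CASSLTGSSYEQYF stood at 1.003% in anti-PD-1 tumour 10 and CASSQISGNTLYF at 0.999% in vehicle tumour 2. For 33 members the interval reached below 1%, so their membership was within counting error.

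Of the 653 members, 294 (45.02%) had a share of 1 to 2%, 224 of 2 to 5%, 91 of 5 to 10% and 44 of 10% or more. All 14 vehicle tumours had a clone of 10% or more (22 clones), compared with 8 of 15 anti-PD-1 tumours (11 clones) and 9 of 15 AC484 tumours (11 clones). These numbers were not tested, and 12 of the 14 vehicle libraries were in index set 1, which held no other treatment. The lowest read count behind a member was 103.

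A CDR3 was taken as TRB where it had 1 of 12 J-encoded endings. By this rule 473 members were TRB (72.4%), and another 52 had a shorter match of at least 4 residues to a germline Trbj ending and were kept apart. Matches to germline Traj endings made 118 members TRA (18.1%), and 10 were unassigned. Among smaller clones 56.1% were TRB and 34.5% TRA. Of all reads, on which the threshold was set, 70.2% were TRB and 20.5% TRA, close to the shares of members. The median share was 2.37% for TRB members and 1.77% for TRA members.

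The first comparison asked whether treatment changed how many clones reached 1% and how much of the repertoire they took. Vehicle tumours held 13.9 ± 3.93 (SD, n = 14) expanded clones, anti-PD-1 tumours 14.7 ± 3.46 (n = 15) and AC484 tumours 15.9 ± 3.31 (n = 15). The numbers ran from 8 to 22 in vehicle (median 12.5), from 8 to 21 in anti-PD-1 (median 14) and from 10 to 20 in AC484 (median 17). The 3 ranges overlapped almost wholly. AC484 exceeded vehicle by 1.94 clones (SE 1.36, permutation test, two-sided, p = 0.162, adjusted p = 0.364 over 9 tests) and anti-PD-1 by 1.20 clones (SE 1.24, permutation p = 0.366, adjusted p = 0.512), and anti-PD-1 exceeded vehicle by 0.74 (SE 1.38, permutation p = 0.618, adjusted p = 0.696). None of these differences passed the test. With 2% as the threshold, 3 of 3 differences changed sign, also without passing it.

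The chains were then counted apart. TRB members numbered 10.5 ± 3.57 per vehicle tumour, 11.5 ± 3.56 per anti-PD-1 tumour and 10.2 ± 2.83 per AC484 tumour, and no pair differed past the threshold (permutation tests, adjusted p from 0.438 to 0.821, over 6 tests chosen after the data were seen). TRA members numbered 2.29 ± 1.38 in vehicle, 1.53 ± 1.96 in anti-PD-1 and 4.20 ± 1.70 in AC484, and AC484 exceeded vehicle by 1.91 (permutation adjusted p = 0.0117) and anti-PD-1 by 2.67 (permutation adjusted p = 0.00594). The share of reads assigned to TRA moved with this result. It was 10.9 to 23.4% in set 1, 3.87 to 9.59% in set 2, 23.7 to 41.7% in set 3 and 19.95 to 36.4% in set 4, and the 12 libraries of set 2 held 5 TRA members in all. Within set 3, 7 AC484 tumours held 4.43 ± 1.62 TRA members and 5 anti-PD-1 tumours 4.00 ± 1.22, a difference of 0.43 (exact permutation p = 0.706).

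**Figure D1:**
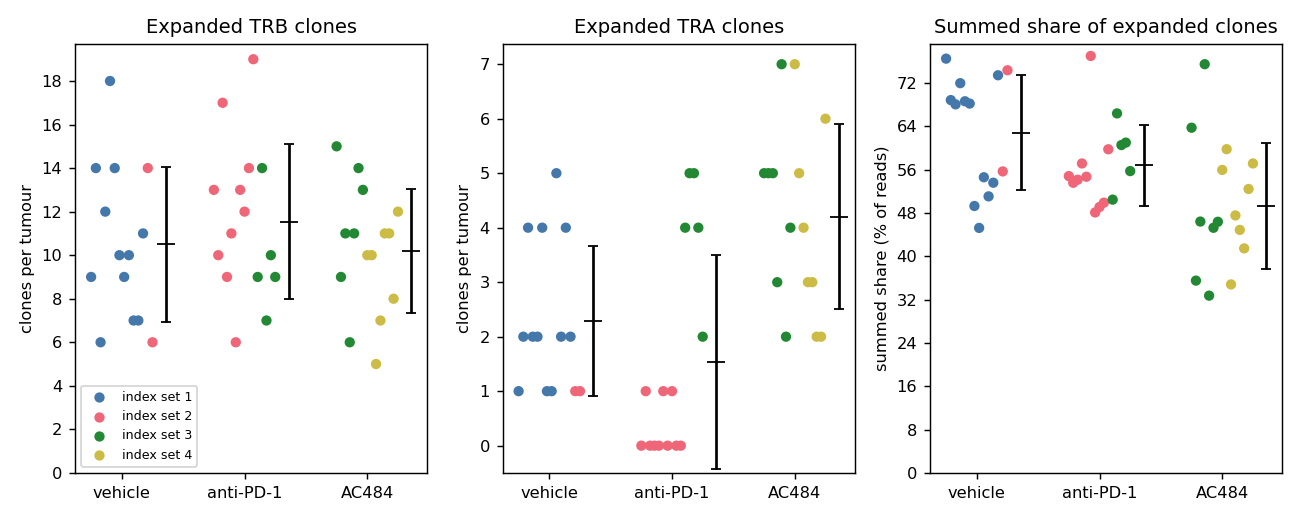
Points are tumours, coloured by index set, and show the number of expanded TRB clones (left), the number of expanded TRA clones (centre) and the summed share of all expanded clones in % of reads (right) for 14 vehicle, 15 anti-PD-1 and 15 AC484 tumours, with the mean and SD in black. TRB numbers overlap between treatments, TRA numbers are lowest in the libraries of set 2, and the summed share averages 62.8%, 56.8% and 49.3%.

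Together, expanded clones took 62.8% ± 10.7 of the reads in vehicle tumours, 56.8% ± 7.51 in anti-PD-1 tumours and 49.3% ± 11.7 in AC484 tumours. The summed share ran from 45.3 to 76.5% in vehicle (median 68.2), from 48.1 to 77.0% in anti-PD-1 (median 54.8) and from 32.7 to 75.5% in AC484 (median 46.4). Only 1 of 15 AC484 tumours and 1 of 15 anti-PD-1 tumours exceeded the vehicle median, and the ranges overlapped. AC484 was lower than vehicle by 13.5 percentage points (difference -13.5, SE 4.15, permutation p = 0.00371, adjusted p = 0.0334). Subtracting the anti-PD-1 mean from that of AC484 gave -7.52 (SE 3.59, permutation p = 0.0441, adjusted p = 0.199), and the vehicle mean from that of anti-PD-1 -5.997 (SE 3.45, permutation p = 0.0909, adjusted p = 0.273). The values within a set had the same sign without passing the test, at -9.47 for AC484 minus anti-PD-1 in set 3 (exact permutation p = 0.217) and -9.19 for anti-PD-1 minus vehicle in set 2 (exact permutation p = 0.212). The difference between AC484 and vehicle was -13.6 when all libraries were drawn to 8080 reads (permutation adjusted p = 0.0305). The call was lost when shares were taken within each chain (-9.83, permutation adjusted p = 0.177), at a threshold of 0.5% (-11.0, adjusted p = 0.0817), on ranks (adjusted p = 0.0625) and without any 1 of 13 of the 29 tumours (adjusted p up to 0.0659).

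The remaining comparisons set expanded against smaller clones of the same tumour, in features that the threshold did not use. The mean length of expanded TRB clones was 14.02 ± 0.44 residues over 44 tumours against 14.09 ± 0.06, a difference of -0.07 (SE 0.06, 95% interval -0.20 to 0.06, sign-flip permutation p = 0.273, adjusted p = 0.409 over 3 tests). Expanded clones were shorter in 24 tumours and longer in 20. In TRA, with 37 tumours that held an expanded TRA clone, the difference was -0.03 residues (SE 0.14, 95% interval -0.30 to 0.24, permutation p = 0.828, adjusted p = 0.828). Its direction depended on the setting. With shares taken within each chain, expanded TRA clones were longer by 0.18 residues and passed the test (permutation adjusted p = 0.00453), and the difference was also above 0 at thresholds of 0.5% and 2% and in the draw to 8080 reads, without passing it. CDR3s of 16 or more residues made up 10.1% of expanded and 14.0% of smaller TRB clones over all tumours. The length difference in TRB averaged -0.04 in vehicle, -0.17 in anti-PD-1 and -0.003 in AC484, and no pair of treatments differed past the threshold (permutation adjusted p from 0.512 to 0.814).

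**Figure D2:**
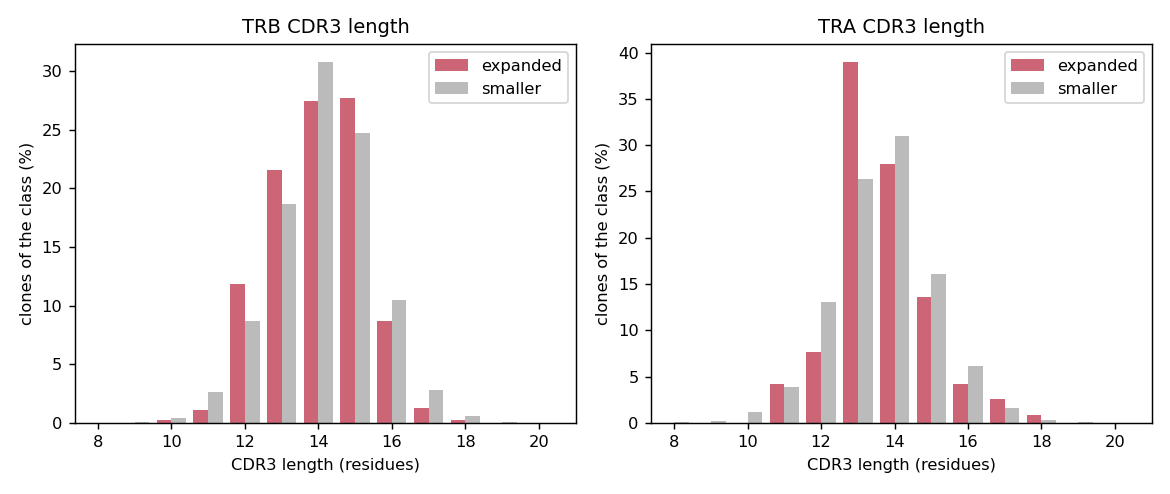
Bars give the percentage of expanded (red) and smaller (grey) clones with each CDR3 length in residues, for TRB (left; 473 expanded and 95440 smaller) and TRA (right; 118 expanded and 58766 smaller), all tumours pooled. Both TRB classes peak at 14 to 15 residues, and expanded TRA clones peak at 13.

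The 12 functional Trbj genes lie on chromosome 6 (GRCm38, chr6:41533864-41543856), 6 in the Trbj1 and 6 in the Trbj2 cluster. Of these 12 genes, 1 (8.33%) differed between expanded and smaller clones in edgeR's quasi-likelihood test on numbers of CDR3s, with the tumour as a block. Trbj2-3 made up 69 of 473 expanded TRB clones (14.6%) and 9.73% of smaller ones. Averaged over tumours, its share was 14.1% ± 11.9 of expanded and 9.61% ± 1.06 of smaller clones, and it was higher among expanded clones in 29 of 44 tumours. The log2 fold change was 0.60 (SE 0.19, edgeR adjusted p = 0.0239), and it was -0.09 and -0.19 when TMM or DESeq2 size factors, in place of the number of CDR3s, scaled the columns. With those factors the median over the 12 genes fell from 0.11 to -0.56 and -0.65, and Trbj2-3 stood highest of the 12 under each. The call was also lost, with the same sign, when each CDR3 was counted in 1 tumour only (log2 fold change 0.38, edgeR adjusted p = 0.303), at thresholds of 0.5% (adjusted p = 0.0773) and 2% (0.0505), in the draw to 8080 reads (0.0933), against smaller clones of at least 10 reads (0.0572) and by a sign-flip permutation test of the shares per tumour (0.101).

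Trbj2-3 members ranged from 1.02 to 16.6% of reads, in 54 distinct CDR3s and 31 tumours. Vehicle tumours held 0 to 4 of them (16 in 8 tumours), anti-PD-1 tumours 0 to 5 (28 in 12 tumours) and AC484 tumours 0 to 5 (25 in 11 tumours). Trbj2-1 had the opposite sign, with 9.73% of expanded and 14.6% of smaller clones (log2 fold change -0.51, SE 0.20, edgeR adjusted p = 0.0741), and did not pass the test. It passed at a threshold of 0.5% (-0.66, edgeR adjusted p = 0.00101) and with shares taken within each chain (-0.67, adjusted p = 0.00869). It also passed with TMM or DESeq2 size factors (-1.20 and -1.32). Those factors called 8 and 9 of the 12 genes lower and 0 higher, so these calls do not single out Trbj2-1. In the Trbj1 cluster, the share in expanded and smaller clones was 11.2% and 9.54% for Trbj1-1, 6.55% and 5.92% for Trbj1-2, 6.77% and 5.98% for Trbj1-3, 7.82% and 6.92% for Trbj1-4, 1.48% and 2.71% for Trbj1-5, and 4.44% and 3.19% for Trbj1-6. In the Trbj2 cluster it was 4.23% and 6.28% for Trbj2-2, 10.4% and 7.43% for Trbj2-4, 10.6% and 12.3% for Trbj2-5, and 12.3% and 15.5% for Trbj2-7. These 10 genes had edgeR adjusted p from 0.209 to 0.758. For Trbj2-7 the log2 fold change was -0.31, and -0.12 with the shorter matches included (edgeR adjusted p = 0.592).

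**Figure D3:**
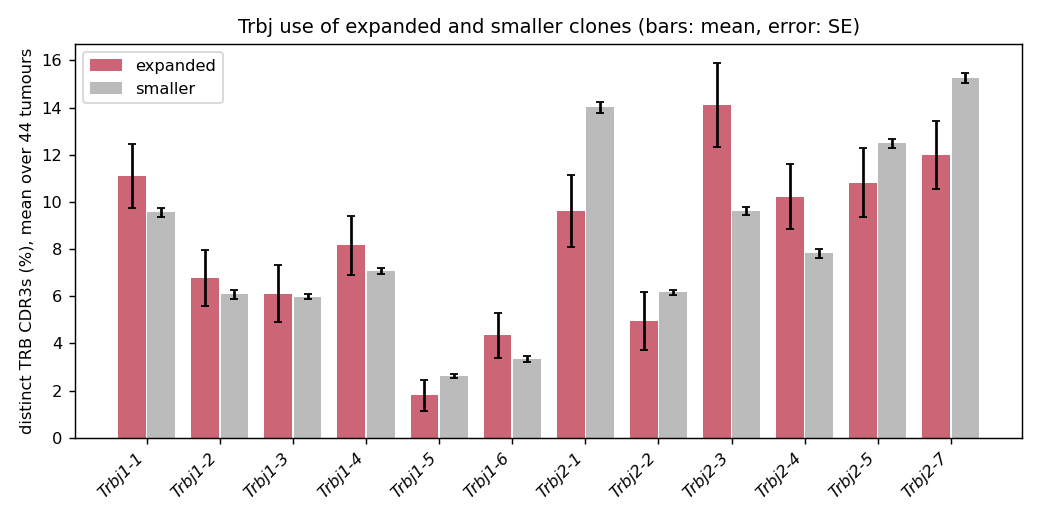
Bars give the mean percentage of distinct TRB CDR3s that used each of 12 Trbj genes among expanded (red) and smaller (grey) clones over 44 tumours, with the SE. Trbj2-3 averages 14.1% of expanded and 9.61% of smaller clones, and Trbj2-1 averages 9.62% and 14.0%. The log2 fold change of Trbj2-3 falls below 0 with TMM or DESeq2 size factors, under which it still ranks highest of the 12 genes.

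Trbj use of expanded clones was also compared between treatments. Of 12 genes, 0 (0%) passed the edgeR test in each of 3 comparisons, 0 passed in DESeq2, and at an unadjusted edgeR p under 0.05 there were 0 for AC484 against vehicle, 1 for AC484 against anti-PD-1 and 0 for anti-PD-1 against vehicle. That gene was Trbj2-2, used by 11 of 153 expanded TRB clones in AC484 (7.19%, 8 tumours), 2 of 173 in anti-PD-1 (1.16%, 2 tumours) and 7 of 147 in vehicle (4.76%, 6 tumours). Its log2 fold change between AC484 and anti-PD-1 was 1.85 (SE 0.61, edgeR adjusted p = 0.0557).

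Among expanded α chains, Traj7 stood apart. The functional Traj genes lie on chromosome 14 (GRCm38, chr14:54157280-54217901), and 1 of the 43 tested (2.33%) differed between expanded and smaller clones. Traj7 made up 41 of 118 expanded TRA clones (34.7%) against 1658 smaller ones of the same 37 tumours (3.32%), a log2 fold change of 3.08 (SE 0.26, edgeR adjusted p = 2.25e-14). Its share was higher among expanded clones in 28 of 37 tumours, and the other 9 held no expanded Traj7 chain. Counting each CDR3 in 1 tumour only gave 3.24 (edgeR adjusted p = 8.57e-10).

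The 41 members, 26 of them of 13 residues, had 25 distinct CDR3s and shares from 1.011 to 12.6% (median 1.88). Vehicle tumours held 0 or 1 (9 in 9 of 14 tumours), anti-PD-1 tumours 0 to 3 (11 in 7 of 15 tumours) and AC484 tumours 0 to 3 (21 in 12 of 15 tumours). By index set they numbered 8 in set 1, 3 in set 2, 20 in set 3 and 10 in set 4. Traj7 made up 28.1% of the expanded TRA clones of vehicle, 47.8% of anti-PD-1 and 33.3% of AC484. No other Traj gene had more than 8 expanded clones, which was the number for Traj30 (6.78% against 4.14%, edgeR adjusted p = 0.509). In 14 of the 43 genes no clone reached 1%, where 0 of 118 allows a share of up to 2.54% and the smaller clones had 0.575 to 2.38%. Traj18, the J gene of invariant natural killer T cells, was among them, with 0 of 118. Traj33, that of mucosal-associated invariant T cells, is also used by other α chains. It had 5 members in 5 tumours, in 4 CDR3s, of which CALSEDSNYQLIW was the largest. Whether any of them was an invariant chain was not tested.

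**Figure D4:**
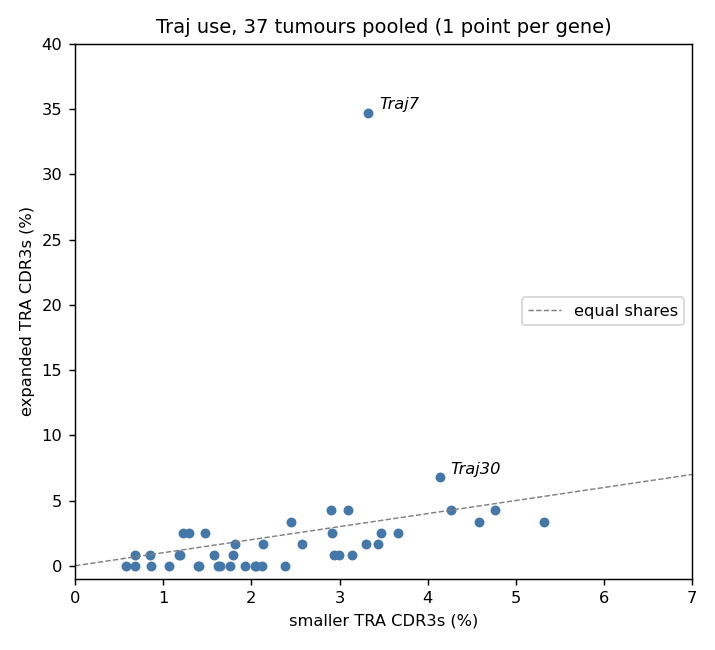
Each point is 1 of 43 Traj genes, with its percentage of smaller TRA CDR3s on the horizontal axis and of the 118 expanded ones on the vertical axis, 37 tumours pooled. The dashed line marks equal shares. Traj7 lies at 3.32% and 34.7%, and the next gene, Traj30, at 6.78% of expanded clones.

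The residues in the centre of the TRB CDR3, without the first 4 and the last 6, also differed. This fixed trim can leave residues encoded by V or J genes in the centre. They were not separated from those of the joint. Of 20 residues, 8 (40%) passed a sign-flip permutation test over tumours, 1 of them cysteine, for which the test is void. Expanded clones had more glutamine, a polar residue, at 9.10% ± 3.94 of central residues against 5.29% ± 0.67 (difference 3.81 percentage points, higher in 35 of 44 tumours, permutation adjusted p = 0.0002). They also had more proline, which stiffens the loop, at 7.64% ± 5.51 against 4.90% ± 0.34 (difference 2.75, higher in 30 of 44, permutation adjusted p = 0.0048). Expanded clones had less alanine (difference -1.85, permutation adjusted p = 0.00095), tryptophan (-1.59, 0.00095), asparagine (-1.55, 0.00192) and arginine (-1.52, 0.0271), with lower shares in 34, 35, 36 and 31 of 44 tumours. Asparagine depended on where the centre was taken to start and end. Without only the first 3 and last 3 residues its difference was -0.25 (permutation adjusted p = 0.549), and it no longer passed over the whole CDR3 (-0.17, adjusted p = 0.422) or weighted by reads (-0.93, adjusted p = 0.217). Arginine lost its call under the same 3 settings, in the draw to 8080 reads and against smaller clones of at least 10 reads (differences from -1.35 to -0.48, permutation adjusted p from 0.0663 to 0.116). Glutamine and alanine lost theirs over the whole CDR3 (0.42 and -0.34) and proline weighted by reads (2.79, permutation adjusted p = 0.0673).

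Cysteine (-0.13 percentage points) and methionine (-0.20) also had an adjusted p under the threshold in the sign-flip test. Both are rare. No expanded clone had a central cysteine, so no tumour could differ upwards and the test is void for it, with 0 cysteines among 1894 central residues of expanded clones, which allows up to 0.158% where smaller clones had 0.146%. A test of the numbers of residues, added after the data were seen, passed 6 residues and neither of these (edgeR adjusted p = 0.0727 and 0.156). Mean hydropathy of the centre, where a lower value is more polar, was -0.91 ± 0.40 for expanded and -0.82 ± 0.03 for smaller clones. The difference of -0.09 (SE 0.06, 95% interval -0.21 to 0.03, sign-flip permutation p = 0.141, adjusted p = 0.409) did not pass the test.

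**Figure D5:**
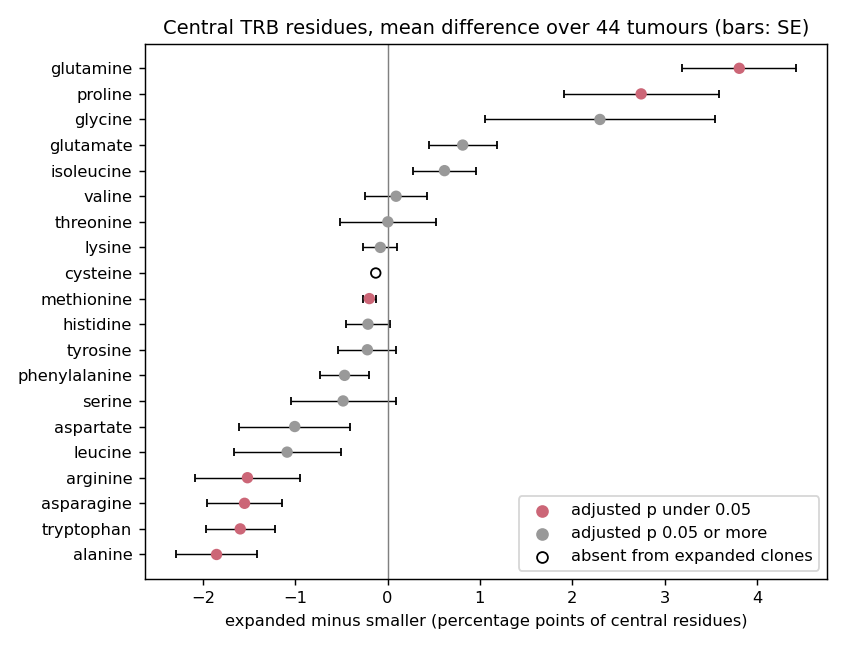
Points give the mean over 44 tumours of the percentage of central TRB residues in expanded minus smaller clones, with the SE, for each amino acid. Residues with an adjusted p under 0.05 are red, and cysteine, absent from expanded clones and not testable in this way, is open. Glutamine (3.81) and proline (2.75) lie highest and alanine (-1.85) lowest. Cysteine and methionine lie at -0.13 and -0.20.

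Glutamine was frequent at residue 5, where the V-encoded start meets the joint. This position was looked at after the test, so its values are a description. Of the 473 expanded TRB clones, 96 (20.3%) had glutamine there against 8.85% of smaller clones, and the share was higher among expanded clones in 36 of 44 tumours. It was 23.8% in vehicle, 20.2% in anti-PD-1 and 17.0% in AC484 for expanded clones, and 10.3%, 9.22% and 8.45% for smaller ones. CASSQ was the most frequent start of an expanded TRB clone, with 89 members (18.8%) in 41 tumours against 7.47% of smaller clones, ahead of CASSL with 17.1% and 17.3%. Beyond residue 5, glutamine was 5.49% of central residues in expanded and 3.82% in smaller clones, and proline 6.05% and 2.93%.

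Most expanded CDR3s were expanded in a single tumour. The 653 members had 576 distinct CDR3s, of which 530 passed 1% in 1 tumour and 46 in at least 2, and these 46 accounted for 123 members. Of the 46, 12 were expanded in 3 or more tumours, and 7 of the 12, each of 14 residues or fewer, are shown. The others were 2 Trbj2-3 CDR3s of 15 residues, each expanded in 5 tumours, a Trbj2-5 CDR3 of 15 residues and a Traj30 chain of 14 residues, each in 4 tumours, and a Trbj2-4 CDR3 of 15 residues, in 3 tumours.
Traj7, 9 tumours: CAAKDYSNNRLTL
Traj7, 8 tumours: CAASDYSNNRLTL
Trbj2-7, 4 tumours: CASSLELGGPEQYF
Trbj2-3, 4 tumours: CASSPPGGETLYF
Trbj2-3, 3 tumours: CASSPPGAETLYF
Trbj2-4, 3 tumours: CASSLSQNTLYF
Trbj1-5, 3 tumours: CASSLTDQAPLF

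CAAKDYSNNRLTL was expanded in 3 vehicle, 2 anti-PD-1 and 4 AC484 tumours, from all 4 index sets, at 1.10 to 12.4% of reads. It was detected in 41 of 44 tumours, with a median of 0.162% in vehicle, 0.0962% in anti-PD-1 and 0.499% in AC484. CAASDYSNNRLTL was expanded in 1 vehicle, 4 anti-PD-1 and 3 AC484 tumours, at 1.06 to 12.6%. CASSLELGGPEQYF reached 18.2% in an anti-PD-1 tumour and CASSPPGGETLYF 15.9%.

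Several expanded CDR3s differed from each other by 1 residue. At an edit distance of 1, 95 of 468 expanded TRB CDR3s (the shorter matches included) fell into 36 linked groups, and 26 of 98 TRA CDR3s into 7. The share for an equal number of smaller CDR3s was not computed, so whether these shares are unusual was not tested. Shared endings and starts picked out from the expanded CDR3s, and therefore not tested, were the following. DYSNNRLTL, the ending given by Traj7, closed 40 of 118 expanded TRA clones (33.9%) in 27 tumours and 2.53% of smaller ones. CASSPPG opened 28 of 525 expanded TRB clones (5.33%) in 20 tumours and 0.413% of smaller ones. CASSLELGGnEQYF, where n is any residue, was found for 10 members in 10 tumours (1.90%) and 0.0612% of smaller clones. Of the 10 tumours with such a member, 7 (70%) also held an expanded DYSNNRLTL chain, where 27 of all 44 tumours (61.4%) held one. They were 25.9% of those 27.

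Expanded CDR3s were usually seen at low counts elsewhere. As deposited, 94.1% of the 473 expanded TRB clones were also found in another tumour, against 35.4% of smaller ones. In tumours where a member CDR3 was a smaller clone, 86.0% of its 3684 counts were under 1% of its largest count. Leaving out all counts under that level, 42.5% of expanded and 31.7% of smaller TRB clones were found in another tumour. The level rises with the largest count of a CDR3, so expanded and smaller clones were not filtered alike. The part of reads carried over between libraries in these low counts was not tested.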

How the data were processed

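For 44 tumours, the authors used the SMARTer Mouse TCR a/b kit for capture, a MiSeq for sequencing and MiXCR for assembly into amino acid clonotypes (mm10 in the submitters' processing notes). The deposited table holds read counts per CDR3 and tumour, not equalised for depth. The deposited fraction, the count over the tumour's total of both chains, was taken for the 1% threshold. Totals of 8080 to 756858 reads limit the precision. No V gene or nucleotide is paired with a CDR3, so chain and J gene were assigned from germline J endings of GENCODE transcripts (GRCm38). Per-tumour values were compared by two-sided permutation tests (between treatments) and sign-flip permutation tests (within tumours) with 100000 resamples, whose smallest p is 1e-05, and J use by edgeR 4.0.16 on numbers of CDR3s, with Benjamini-Hochberg adjustment and a threshold of 0.05. Traj genes needed at least 100 distinct CDR3s. The steps were also run on simulated data that drew residues and J genes independently. These draws do not cover residues grouped within clones or CDR3s that recur between tumours. Alternatives changed the threshold, chain, depth, filters, tests and scaling. Members, lists and tests were chosen with earlier results of these data known. Named were the 12 Trbj genes, Traj genes and residues past the threshold, the largest, shortest, longest, recurrent and threshold CDR3s, and the J genes of invariant α chains. CDR3s of over 14 residues are not printed, nor is a recurrent Traj30 chain of 14 residues. Software was Python 3.11.15, SciPy 1.17.1, R 4.3.3 and DESeq2 1.42.0.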

Additional observations from a re-analysis of the deposited data

How the results depend on the processing

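The lower summed share in AC484 than in vehicle kept its direction under every alternative run, with differences from -18.0 to -9.83 percentage points. It no longer passed the threshold on ranks (-13.5, adjusted p = 0.0625), at a share of 0.5% or more (-11.0, adjusted p = 0.0817) and with shares within the own chain (-9.83, adjusted p = 0.177). The same happened without 1 tumour, for 13 of 29 tumours (vehicle 1, 2, 3, 4, 5, 6, 12 and 14 and AC484 2, 5, 10, 12 and 13), with adjusted p from 0.0511 to 0.0659. Over all 29 such removals the difference lay between -15.4 and -12.3. AC484 minus anti-PD-1 lay between -9.40 and -6.08 with 1 tumour left out and passed the threshold without AC484 4 (-9.40, adjusted p = 0.0252). For the number of expanded clones, a threshold of 2% gave -1.10 for AC484 minus vehicle, -1 for AC484 minus anti-PD-1 and -0.10 for anti-PD-1 minus vehicle. TRB clones alone gave -0.30 for AC484 minus vehicle and -1.33 for AC484 minus anti-PD-1, while TRA clones alone gave 1.91 and 2.67, and -0.75 for anti-PD-1 minus vehicle. The TRB length difference of AC484 minus vehicle, 0.03, turned to -0.16 at 2% and -0.045 without libraries under 20000 reads, and ran from -0.030 to 0.079 with 1 tumour left out. The TRA length difference turned positive at 0.5% (0.15), at 2% (0.23), within the own chain (0.18, adjusted p = 0.00453) and in the draw to 8080 reads (0.11), and ran from -0.11 to 0.042 with 1 tumour left out. Hydropathy was 0.0058 over the whole CDR3. The number of residues that passed was 5 when weighted by reads, 4 over the whole CDR3 and 8 to 10 with 1 tumour left out.

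The number of Trbj genes that differed, 1 in the reported test, was 9 with DESeq2 and 8 with TMM (lower in each), 2 at 0.5% (Trbj2-1 and Trbj2-4, without Trbj2-3), 2 within the own chain (Trbj2-1 and Trbj2-3), and 0 at 2%, in the draw, with smaller clones of at least 10 reads, with each CDR3 counted once and by sign-flip permutation. With DESeq2 and TMM the log2 fold change turned to -0.55 and -0.45 for Trbj1-1, -0.67 and -0.58 for Trbj1-2, -0.62 and -0.51 for Trbj1-3, -0.63 and -0.53 for Trbj1-4, -0.35 and -0.31 for Trbj1-6, -0.19 and -0.094 for Trbj2-3, and -0.40 and -0.30 for Trbj2-4. Trbj1-2 was -0.046 at 0.5% and -0.051 within the own chain, and Trbj1-4 was -0.0025 within the own chain. The number of Traj genes was 9 within the own chain and 23 by sign-flip permutation, and Traj7 passed in each of the 11 alternatives. In 14 genes without a member the sign-flip test has differences of 1 sign by construction. The cause of the other changes was not tested.

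Replicate numbers are shared between treatments, and Trbj use gave no sign that they pair the tumours. Deviations of the Trbj shares of smaller clones correlated above 0.1 in 15 of 43 same-numbered pairs (median -0.02). This check covers Trbj use only, so it cannot exclude a pairing of another kind. With the replicate number as a block, AC484 minus vehicle was -14.1 for the summed share (adjusted p = 0.0391), and 1 Trbj gene, Trbj2-2, passed for AC484 against anti-PD-1 (adjusted p = 0.0464). No other call over the number, the summed share, the length difference or Trbj use by treatment changed. No index set held AC484 and vehicle, so that pair has no value within a set.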
